A study of Homo sapiens with 6 samples.

Results

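MYC and 6 immediate early genes, FOS, JUN, EGR1, IER2, DUSP1 and ATF3, were examined for peaks of RNA polymerase I (Pol I) and of RNA polymerase II (Pol II) in LNCaP cells. The members were chosen by gene position on hg19: every listed peak with at least 1 bp inside the gene span, given in whole kb, with 5 kb added on both sides. The 7 windows together spanned 154 kb and held 31 of the 84817 listed peaks, namely 19 from the DMSO Pol I list, 4 from the DMSO Pol II list, 7 from the BMH-21 Pol I list and 1 from the BMH-21 Pol II list.

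LNCaP is an androgen-responsive human prostate cancer line. The cells had been exposed for 6 h to the vehicle DMSO or to 1 µM BMH-21, a DNA-intercalating small molecule that inhibits Pol I, the enzyme of ribosomal RNA precursor synthesis. Chromatin was immunoprecipitated with an antibody against Pol I or one against Pol II carrying phosphate on serine 5 of the repeats at its C-terminal end, so that Pol II below means that form, and a change of phosphorylation and a change of position cannot be told apart. All 4 ChIP libraries came from the same line, each group had 1 library, and 2 input libraries were not analysed here. Differences between treatments therefore have no replicate error and no test, read depth is unknown, and intervals are exact Clopper-Pearson 95% intervals for counting error only.

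Immediate early genes are switched on within minutes of a stimulus without new protein synthesis, and their promoters are known for Pol II that is loaded and paused before the signal arrives. FOS, JUN and ATF3 encode leucine zipper transcription factors that act in AP-1 and related dimers. EGR1 is a zinc finger transcription factor, IER2 a small nuclear protein, and DUSP1 a phosphatase that switches MAP kinases off again. MYC, also an early response gene, encodes a transcription factor that drives growth and ribosome production, including transcription by Pol I.

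The stretch of 250 bases before the annotated start is shown for 5 of the genes. In FOS, IER2, EGR1 and JUN, a DMSO Pol I peak lay across the start edge or ended at most 710 bp before it. In DUSP1 none was listed there, which does not show that none was called, for reasons given below. The sequences are RefSeq's on GRCh38.p14, not the build of the peaks, and run 5′ to 3′ on the gene's strand. All 6 genes other than MYC were matched in the table. ATF3, with several starts, is not shown. Capitals mark TATAAA, TGACGTCA (the cyclic AMP response element), GGGCGG (the core of a GC box) and the CArG box, which serum response factor binds, searched on both strands.
FOS, chr14:75278578-75278827, plus strand: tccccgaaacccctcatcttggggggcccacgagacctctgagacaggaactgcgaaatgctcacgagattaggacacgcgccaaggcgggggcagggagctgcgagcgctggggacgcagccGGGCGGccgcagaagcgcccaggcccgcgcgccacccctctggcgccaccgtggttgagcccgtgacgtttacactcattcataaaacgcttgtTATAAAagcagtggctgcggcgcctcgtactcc
IER2, chr19:13150161-13150410, plus strand: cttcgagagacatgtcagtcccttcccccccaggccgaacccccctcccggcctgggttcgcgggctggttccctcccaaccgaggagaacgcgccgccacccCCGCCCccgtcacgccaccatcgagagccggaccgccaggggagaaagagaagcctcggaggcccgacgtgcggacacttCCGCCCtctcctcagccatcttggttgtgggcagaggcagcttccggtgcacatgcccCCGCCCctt
EGR1, chr5:138465229-138465478, plus strand: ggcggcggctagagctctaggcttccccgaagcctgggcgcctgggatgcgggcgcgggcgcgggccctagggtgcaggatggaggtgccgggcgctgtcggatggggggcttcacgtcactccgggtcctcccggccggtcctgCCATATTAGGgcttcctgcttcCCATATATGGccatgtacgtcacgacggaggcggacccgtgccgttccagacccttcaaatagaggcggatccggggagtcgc
JUN, chr1:58784048-58784297, minus strand: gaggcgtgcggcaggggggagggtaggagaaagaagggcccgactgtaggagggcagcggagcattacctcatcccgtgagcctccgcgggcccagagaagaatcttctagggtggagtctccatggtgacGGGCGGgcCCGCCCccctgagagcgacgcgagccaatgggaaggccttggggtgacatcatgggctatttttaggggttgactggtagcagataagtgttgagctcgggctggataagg
DUSP1, chr5:172771196-172771445, minus strand: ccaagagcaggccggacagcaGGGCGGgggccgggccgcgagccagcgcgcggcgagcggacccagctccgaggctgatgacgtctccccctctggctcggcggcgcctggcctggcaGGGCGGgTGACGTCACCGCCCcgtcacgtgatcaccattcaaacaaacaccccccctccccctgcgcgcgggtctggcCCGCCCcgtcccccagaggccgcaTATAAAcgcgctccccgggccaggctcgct

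The marked motifs differed from gene to gene, and no match shared a base with another motif's match. FOS had TATAAA at 33 to 28 bases before the start and 1 GGGCGG. DUSP1 had TATAAA at 30 to 25 bases before the start, 1 TGACGTCA and 4 GGGCGG. EGR1 had 2 CArG boxes and none of the other elements, IER2 had 3 GGGCGG, and JUN had 2. Among 35116 upstream stretches of the same length in the table, 10.7% held TATAAA, 1.65% TGACGTCA, 42.6% GGGCGG and 1.16% a CArG box. GC content was 64.8% for FOS, 69.6% for IER2, 68.4% for EGR1, 62.0% for JUN and 74.4% for DUSP1, against a median of 58.0% over the table. A match is a description of letters and not a binding site. Only full matches within the 250 bases were sought, so the lack of one does not show that a gene lacks the element.

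Listed DMSO Pol I peaks were present in all 7 windows, at EGR1 and DUSP1 only in the added 5 kb. Listed DMSO Pol II peaks were present at FOS and ATF3 alone. After BMH-21, Pol I peaks were listed at 4 genes, MYC, FOS, EGR1 and DUSP1, and a Pol II peak at FOS alone. As background, the genome between the outermost listed peaks of each chromosome was cut into 200594 tiles of 15 kb, about the length of 6 of the windows. A DMSO Pol I peak lay in 17.6% of tiles (interval 17.5 to 17.8), a DMSO Pol II peak in 9.08% (8.95 to 9.21), a BMH-21 Pol I peak in 0.802% (0.763 to 0.842) and a BMH-21 Pol II peak in 4.04% (3.96 to 4.13). Against these shares stood 7, 2, 4 and 1 of the 7 windows. The tiles include gene-poor and unsequenced stretches, and whether windows at other genes carry peaks at the members' rate was not tested. The ATF3 window is 67 kb long, and of tiles of that length 50.6% held a DMSO Pol I peak and 26.9% a DMSO Pol II peak.

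**Figure D1:**
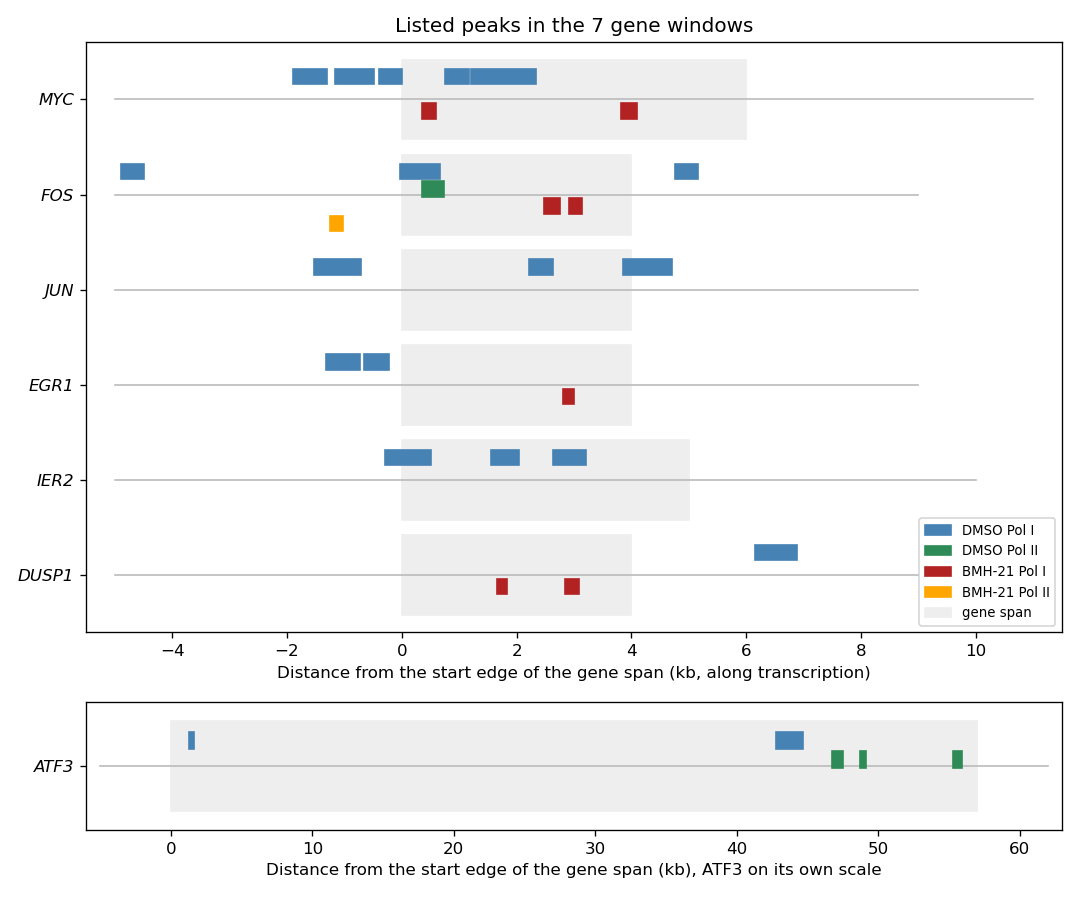
Listed peaks in the windows of MYC, FOS, JUN, EGR1, IER2 and DUSP1 (upper panel) and ATF3 (lower panel, own scale), by distance in kb from the start edge of the gene span along transcription. Coloured bars are peaks to scale, 1 library per colour, and grey boxes are gene spans in whole kb. The 7 BMH-21 Pol I peaks all lie inside gene spans, while the DMSO Pol I peaks lie before, across, inside and after them.

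Features of the lists themselves bear on every absence below. The DMSO and BMH-21 lists of the same antibody had 0 peaks in common for Pol I and 0 for Pol II, so whether a position was occupied in both treatments cannot be read from them. Each peak also carries a running number that rises along the chromosome, and numbers are missing from all lists: 23.3% in DMSO Pol I, 48.1% in DMSO Pol II, 87.7% in BMH-21 Pol I and 77.0% in Pol II of the same treatment. Where consecutive listed peaks carry consecutive numbers, no numbered peak lay between them. Where numbers are skipped, some numbered peak in that stretch is not listed and its position is not given. In the stretches that touched the 7 windows, DMSO Pol I skipped 7 numbers and DMSO Pol II 40, while BMH-21 Pol I skipped 192 and Pol II after BMH-21 93, mostly over long distances.

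MYC had the densest Pol I listing of the 7 genes in DMSO. Its window, on chromosome 8 from 128743 to 128759 kb, held 5 DMSO Pol I peaks that covered 3209 bp, or 20.06% of the window, where this list covered 0.717% of the genome. They formed a row from 128746104 to 128750329, with free stretches of 138, 97, 735 and 47 bp between them. The longest of these began just past the start edge. The 3 peaks at 128746104 to 128746694, 128746833 to 128747510 and 128747608 to 128748014 lay before or across the start edge and had scores of 74.38, 90.68 and 89.82. Scores are the authors' values, transformed p-values of unstated scale, and serve only to rank peaks within a list. The peak at 128748750 to 128749166 scored 83.04, and the widest, 1116 bp from 128749214 to 128750329 inside the gene span, scored 183.39, above 80.4% of its list. The other 4 ranked below the middle of the list, at percentiles of 31.5 to 44.8.

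After BMH-21, MYC had 2 Pol I peaks, both inside the gene span. One lay at 128748358 to 128748594, 0.47 kb past the start edge by its midpoint, with a score of 81.01, and fell in the free stretch of 735 bp between DMSO peaks. The other lay at 128751807 to 128752087, 3.95 kb past the edge, with a score of 61.46, beyond the last DMSO Pol I peak of the window. The numbering skipped 0 in DMSO from 128598756 through the row of 5 peaks, so the DMSO library had no unlisted numbered Pol I peak at the start of MYC or within 147.3 kb before the row. After the row, 1 number was skipped over 25.3 kb, which includes the position of the second BMH-21 peak. RefSeq's MYC gene on GRCh38.p14 is 7.5 kb long against the 6 kb span used here, and CASC11, a noncoding RNA gene, neighbours it within 5 kb, so which peaks lie before the gene depends on the annotation.

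No Pol II peak was listed at MYC in either treatment. The nearest listed DMSO Pol II peak was 74.0 kb and the nearest BMH-21 Pol II peak 53.6 kb outside the window. The peak-free stretch around MYC was 490.0 kb long in the DMSO Pol II list and 774.5 kb in the BMH-21 Pol II list, and each skipped 17 numbers. Pol II peaks at MYC that are not listed can therefore not be told apart from peaks elsewhere in these stretches.

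Of the AP-1 genes, FOS was the only member with a peak in all 4 lists. In DMSO, a Pol I peak at 75744958 to 75745673 on chromosome 14 crossed the start edge with a score of 300.46, above 93.8% of its list. A DMSO Pol II peak at 75745348 to 75745738, score 58.52, overlapped it by 326 bp. It was the only overlap between lists among the 31 peaks. Further DMSO Pol I peaks lay before the gene, at 75740097 to 75740513 (score 185.88, 4488 bp from the start edge), and after the gene span, at 75749761 to 75750165 (score 72.27).

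After BMH-21, the listed FOS peaks lay elsewhere than the DMSO peaks of the same antibody. This holds at every gene, since those lists have no peak in common. A pair of Pol I peaks sat inside the gene span at 75747473 to 75747755 and 75747913 to 75748142, 157 bp apart, with scores of 84.07 and 62.23 and midpoints 2.61 and 3.03 kb past the start edge. The BMH-21 Pol II peak, at 75743756 to 75743982, ended 1019 bp before the edge and had a low score, 51.59, where the list begins at 50. The numbering is complete around several of these peaks. DMSO Pol I skipped 0 numbers from 75740097 to 75760415, so no unlisted DMSO Pol I peak had been numbered where the BMH-21 pair lay. BMH-21 Pol II skipped 0 numbers over the 172.5 kb that follow its peak, so none had been numbered at the position of the DMSO Pol II peak. BMH-21 Pol I skipped 3 numbers over 129.9 kb before the pair, a stretch that includes the DMSO Pol I peak at the start edge, so a numbered peak there cannot be placed.

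JUN, the other core AP-1 gene, had 3 DMSO Pol I peaks and no listed peak of any other library. JUN is transcribed toward lower coordinates on chromosome 1. A peak at 59250710 to 59251533, score 175.51, lay before the gene, 710 bp from the start edge. Another lay inside the span at 59247368 to 59247793, score 108.79, and the last crossed the end edge at 59245305 to 59246151, score 174.93. Of the DMSO Pol I numbers, 1 was skipped between the peak before JUN and the one inside it, a stretch of 2.9 kb that includes the start edge. For the other lists the stretches around JUN were long, with 5 numbers skipped over 297.3 kb in DMSO Pol II, 37 over 5773.0 kb in BMH-21 Pol I and 25 over 3920.8 kb in BMH-21 Pol II. JUN-DT, a noncoding RNA gene, neighbours JUN within 5 kb on GRCh38.p14.

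ATF3, a stress-inducible member of the family with alternative promoters, had a DMSO Pol I peak near the top of its list. Its peak at 212780811 to 212782699 on chromosome 1 was 1889 bp wide and scored 720.03, above 99.8% of the list. It lay inside the 57 kb span, 43.75 kb past the start edge. ATF3 has several starts, and distances to the others were not computed, so this peak may lie at one of them. The other DMSO Pol I peak, at 212739248 to 212739647, was 1.45 kb past the edge and scored 88.88. The DMSO Pol I numbering skipped 0 numbers across the whole ATF3 window, so these 2 were all of the Pol I peaks numbered there in DMSO.

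DMSO Pol II had 3 peaks in ATF3, all beyond the strong Pol I peak toward the end of the gene. They lay at 212784760 to 212785528, 212786734 to 212787158 and 212793288 to 212793898, with scores of 53.83, 57.92 and 68.75. None overlapped a Pol I peak, and 2 numbers were skipped in the 178.1 kb before the first of them, a stretch that includes the strong Pol I peak. After BMH-21, ATF3 had no listed peak of either polymerase, with 19 Pol I numbers skipped over 5493.1 kb and 11 Pol II numbers over 849.7 kb. Whether the strong Pol I peak was lost can therefore not be read from the lists.

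EGR1 had 2 DMSO Pol I peaks, both before the gene and 64 bp apart. The peak at 137799682 to 137800277 on chromosome 5 scored 173.37 and the one at 137800342 to 137800776 scored 93.66 and ended 225 bp before the start edge. After BMH-21, 1 Pol I peak was listed inside the gene, at 137803799 to 137804000, 2.90 kb past the edge, with a score of 55.05. It stood alone, 465.7 kb from the nearest other peak of its list. DMSO Pol I skipped 1 number over the 77.7 kb after its EGR1 peaks. No Pol II peak was listed at EGR1, with 3 numbers skipped over 171.2 kb in DMSO and 4 over 122.0 kb after BMH-21.

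IER2 had 3 DMSO Pol I peaks along the gene and no listed peak of any other library. The peak at 13260707 to 13261512 on chromosome 19 crossed the start edge and scored 277.22, above 92.3% of its list. The peaks inside the gene lay at 13262550 to 13263048 and 13263629 to 13264214, with scores of 98.23 and 129.17. No number was skipped from the start edge through the last of them. STX10, a protein-coding gene, lies within 5 kb of IER2 on GRCh38.p14, and a peak at the start edge may belong to either gene. DMSO Pol II skipped 4 numbers over 593.2 kb around IER2, BMH-21 Pol I 6 over 2184.7 kb and BMH-21 Pol II 10 over 654.5 kb.

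DUSP1, the MAP kinase phosphatase gene, showed no listed DMSO peak at its start or inside its span. DUSP1 is transcribed toward lower coordinates on chromosome 5, and its only DMSO Pol I peak, at 172192107 to 172192843 with a score of 180.74, lay after the gene, 6.53 kb past the start edge. After BMH-21, 2 Pol I peaks lay inside the gene, at 172197166 to 172197336 (score 78.05) and 172195919 to 172196147 (score 53.28), 1018 bp apart. Outside the window, the next BMH-21 Pol I peak was 5935.1 kb away. DMSO Pol I skipped 2 numbers over a stretch of 68.2 kb that contains the whole of DUSP1, so 2 numbered DMSO Pol I peaks that are not listed lay somewhere in it.

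Read across the genes, listed BMH-21 Pol I peaks lay in gene spans, and listed DMSO Pol I peaks lay before, across, inside and after them. All 7 BMH-21 Pol I peaks were wholly inside spans, at 4 of the 6 short genes. JUN and IER2 had none, and 3 of the 4 genes held 2 peaks each, at most 3212 bp apart. The 7 peaks are therefore not 7 separate observations. The spans of the 6 short genes make up 27 of 87 kb (31.0%) of their windows. Of the 17 DMSO Pol I peaks at these 6 genes, 5 were wholly inside, a share near that of the spans. The narrower BMH-21 Pol I peaks (171 to 283 bp) fit wholly inside a span more easily than the DMSO ones (400 to 1889 bp over all 7 genes). Over all 7 genes, 6 of 19 DMSO Pol I peaks lay before the span, 3 across the start edge, 7 inside, 1 across the end edge and 2 after it. Since the lists of the same antibody exclude shared positions, the places of their peaks are not independent of each other, and the difference was not tested.

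Pol I peaks of both treatments were listed at 4 of 7 genes, MYC, FOS, EGR1 and DUSP1, against 0.280% of 15 kb tiles. Among tiles with a DMSO Pol I peak, 1.59% (interval 1.46 to 1.72) also held a BMH-21 Pol I peak. MYC, FOS and DUSP1 had 2 BMH-21 Pol I peaks each, and 2 or more were found in 0.0927% of tiles. Over the whole BMH-21 Pol I list, 28.5% of peaks (interval 26.5 to 30.5) had another within 5 kb.

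DMSO Pol I peaks covered 8.31% of the 7 windows together, where that list covered 0.717% of the genome, and DMSO Pol II peaks covered 1.43%, where theirs covered 0.559%. MYC, FOS, JUN and IER2 had 3 or more DMSO Pol I peaks each, against 0.677% of tiles. By the share of the window under DMSO Pol I peaks, MYC (20.06%) was followed by JUN (14.98%), IER2 (12.61%), FOS (10.99%), EGR1 (7.36%), DUSP1 (5.26%) and ATF3 (3.42%). With 1 library, which neighbours in this order differ beyond a spread is not known. The ATF3 share is taken over 67 kb, against 14 to 16 kb for the others, and in length its DMSO Pol I peaks covered 2289 bp, between MYC (3209 bp) and JUN (2097 bp). Of 15 kb tiles with a DMSO Pol I peak, 26.9% (26.4 to 27.4) also held a DMSO Pol II peak. Among the 6 genes with windows of 14 to 16 kb, FOS alone did. ATF3 also did, but of 22739 tiles of 67 kb with a DMSO Pol I peak, 9744 also held a DMSO Pol II peak. With so few windows, no difference from the background is read from these counts.

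**Figure D2:**
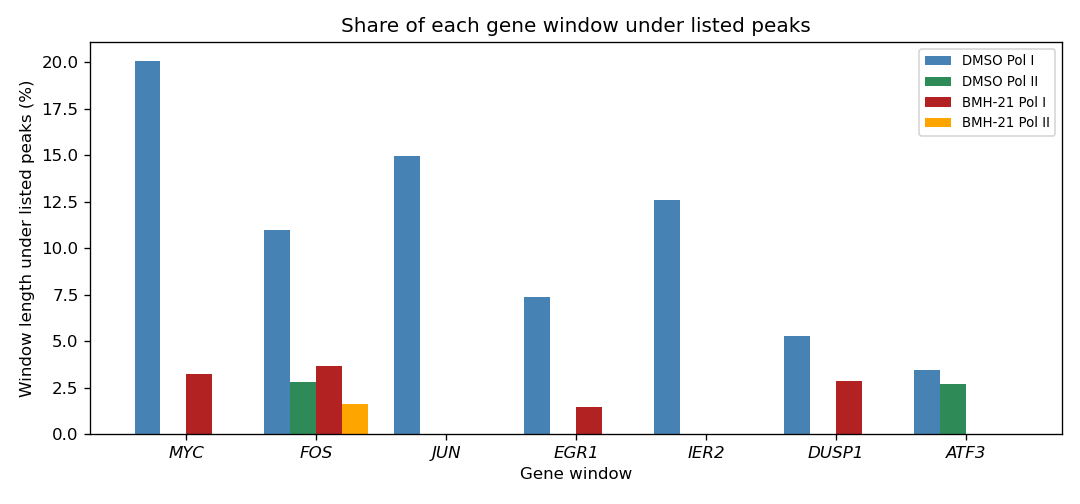
Share of each gene window (% of its length) under listed peaks, by gene and library, 1 library per colour and no error bars. DMSO Pol I is the tallest bar at every gene, from 3.42% at ATF3, whose window is the longest, to 20.06% at MYC, and a missing bar means no listed peak.

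By rank within their own lists, DMSO Pol I peaks at these genes ran from low to very high and Pol II peaks were low. DMSO Pol I scores ran from 72.27 to 720.03 with a median of 129.17, against a list median of 98.3, and 11 of 19 were at or above it. The top DMSO Pol I peak of each gene stood between the 78.2 percentile of its list, at EGR1, and the 99.8 percentile, at ATF3. The highest of several peaks, up to 5 at MYC, tends to rank high by construction, and no background for it was computed. The 4 DMSO Pol II peaks scored 53.83 to 68.75, all below their list median of 81.02. BMH-21 Pol I scores ran from 53.28 to 84.07, with 5 of 7 at or above the list median of 60.735. Widths of BMH-21 Pol I peaks were 171 to 283 bp (list median 216), and those of DMSO Pol I peaks 400 to 1889 bp (list median 464).

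**Figure D3:**
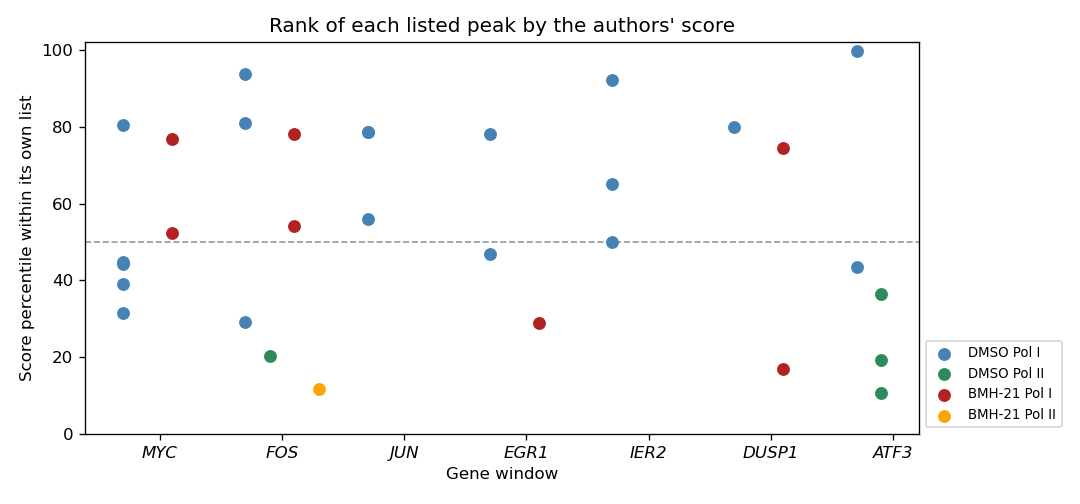
Percentile of each peak's score within its own list (0 to 100), by gene, with 1 point per peak coloured by library. The dashed line is the middle of a list. Of the 19 DMSO Pol I points, 11 lie at or above the middle, and all 4 DMSO Pol II points lie below it. The highest DMSO Pol I point of each gene is at or above the 78.2 percentile, but most genes have several points. The JUN points at 78.6 and 78.7 coincide.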

How the data were processed

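The authors' deposited files were 4 peak lists, 1 per ChIP library, with a score per peak that the file headers call a p-value. Its values start at 50, so it is treated as a score of unstated scale. The build was hg19, and the tools, per the submitters' processing notes, were Bowtie2 2.2.1, CASAVA 1.8.2 and deepTools 3.5.4. Peak names begin with MACS. For the caller's settings, the use of input and the selection of peaks, nothing is stated. Groups were taken from sample titles.

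Starts were converted to count from 1. A peak belonged to a gene with 1 bp or more in its window. Skipped numbers were counted in stretches between consecutive listed peaks that touch a window. Counting was tested on simulated data. The members and lists were chosen with earlier results of these data known. All 7 genes and all their peaks were to be named. MYC's direction of transcription is general knowledge, and the others' comes from RefSeq. No annotation of hg19 was used, so other early genes, distances to exact starts and genes of like pattern were not computed. Alternatives changed the added length, score, width, midpoint rule and tile length. Python 3.11.15, NumPy 2.4.6, pandas 2.3.3, SciPy 1.17.1 and matplotlib 3.10.9 were used.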

Additional observations from a re-analysis of the deposited data

How the results depend on the processing

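For 17 results, 65 values were computed under other settings. Counts within a factor of 1.5 and shares inside the interval made up 33 of them, and the other 32 moved further. The 67 kb tiles, the count of genes with Pol I peaks of both treatments and the tile shares for 2 or more and 3 or more peaks were chosen after seeing the data, so these shares describe patterns already seen at the genes. With no added length, the spans held 11 DMSO Pol I peaks, at 5 genes, and 0 BMH-21 Pol II peaks (at 0 genes). At that setting 2 genes had Pol I peaks of both treatments. With 20 kb added, 7 DMSO Pol II peaks at 4 genes were counted. At or above the median score of each list there remained 11 DMSO Pol I peaks, and 0 peaks at 0 genes for Pol II of either treatment. At a width of at least 300 bp, 0 BMH-21 peaks of Pol I or Pol II were left, at 0 genes, and 0 genes had Pol I peaks of both treatments, which follows from the widths of 171 to 283 bp. The share of tiles with a peak moves with tile length by construction. For Pol I and Pol II in DMSO, then Pol I and Pol II after BMH-21, it was 12.6%, 6.68%, 0.547% and 2.91% with 10 kb tiles, 30.2%, 15.2%, 1.53% and 7.05% with 30 kb tiles, and 50.6%, 26.9%, 3.25% and 13.1% with 67 kb tiles. Among tiles with a peak of any list it was 74.3%, 38.3%, 3.38% and 17.0%. No paired analysis was possible because each group has 1 library and no result comes from a test. The lists give no depth, so absence from a list does not show absence of the polymerase.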

Other observations

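Within 20 kb of the gene spans but outside the windows, 9 more peaks were listed, all from the DMSO libraries. Beyond FOS, a DMSO Pol I peak at 75760416 to 75761016 (score 150.2) and a DMSO Pol II peak at 75760386 to 75761021 (score 170.14) lay at the same place, 6.39 kb outside the window. After the end of JUN, a DMSO Pol I peak at 59238968 to 59239447 (score 108.07) and a DMSO Pol II peak at 59239085 to 59239535 (score 78.71) likewise lay together, 1.47 kb outside. Beyond IER2, a DMSO Pol I peak at 13273300 to 13274119 scored 380.07, more than any in the IER2 window, and lay 2.30 kb outside it. A DMSO Pol I peak 0.54 kb outside the ATF3 window scored 82.73.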
